A study of Mus musculus with 6 samples.

Results

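The genes described here encode secreted and membrane-bound metalloproteases that cut the extracellular matrix, and the inhibitors that restrain them. They are the 51 genes whose single symbol in the platform annotation is Mmp, Adamts, Adamtsl or Timp followed by a number, out of 22296 symbols on the array. The 51 comprise 23 matrix metalloproteinases (MMPs), 19 ADAMTS proteases, 5 ADAMTS-like proteins and 4 tissue inhibitors of metalloproteinases (TIMPs). Total RNA was taken from OP9, a stromal line of mouse marrow that supports lymphoid cells in culture, and was hybridised to 6 Affymetrix Mouse Exon 1.0 ST arrays. All cells carried a stably integrated pLKO.1-Puro lentiviral hairpin and were kept below confluence. In 3 samples the hairpin was a scrambled control (control shRNA), and in the other 3 it was directed against Smoothened (Smo shRNA). Smoothened (Smo) is the membrane protein through which all Hedgehog ligands signal. The question is how the stromal transcriptome differs once Smo is lowered. Each condition is 1 stable line sampled in triplicate, with no statement that the samples came from separate cultures, and the p-values therefore rest on a spread between samples that may be purely technical. A difference between the lines that does not come from the hairpin cannot be told apart from one that does.

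MMPs and ADAMTS proteases are zinc enzymes made as precursors with a propeptide, which in many of them has to be removed before they can cut. MMPs together cleave most fibrous proteins of the matrix, while several ADAMTS proteases cut large proteoglycans such as aggrecan and versican, and others trim procollagens. ADAMTS-like proteins share the ancillary domains of ADAMTS proteases and lack the catalytic one. TIMPs bind the active site of the enzymes, and in marrow stroma the balance of both sets how matrix and matrix-bound factors are turned over.

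Values are log2 probe set signals as deposited, joined into 1 value per gene from the brighter probe sets (mean of 6.56 or more, the overall median), where at least 3 of these existed. A difference is a log2 difference, Smo shRNA minus control shRNA. A gene was called when its limma p, adjusted over all 16923 tested genes by the Benjamini-Hochberg method, was under 0.05. Smo itself read 12.29, 12.22 and 12.24 in the control shRNA samples and 11.32, 11.36 and 11.44 in the Smo shRNA samples, and was 1.83-fold lower (log2 difference -0.88, SE 0.04, limma adjusted p = 1.22e-09). Across genes, arrays of the same line correlated at 0.996 to 0.998 and arrays of different lines at 0.979 to 0.981. Of the 8 stromal markers, 7 were bright in both lines (unfiltered means of 10.16 to 13.30), while Thy1 was dim (7.29 and 7.24). The unfiltered means of endothelial markers were 5.39 to 7.30 and those of lymphoid markers 4.998 to 7.42. Macrophage and osteoclast markers ran from 4.58 to 9.66 and neutrophil markers from 6.12 to 8.05, with Cd14 (9.66 in control and 9.54 in Smo shRNA samples), Ctsk (8.45 and 8.30) and Camp (8.05 and 8.02) the brightest. The summed log2 level of the stromal markers was lower in the Smo shRNA samples (89.54 to 90.29) than in the control shRNA samples (92.49 to 92.86), and 7 of the 8 were called lower (17.4% of all genes were). Of the markers of other cell types, Ctsk was called lower (-0.21, adjusted p = 0.0334; not called without the filter, -0.16, adjusted p = 0.142), and none of the other 17 tested was called. The part of these shifts in the results below was not tested. In bulk RNA, fewer cells making a transcript and less transcript per cell cannot be told apart.

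Of the 51 genes, 48 had enough probe sets to be tested, and 20 of these were called (41.7%, against 38.6% of all genes tested), most of them lower in Smo shRNA cells. A total of 17 fell (35.4%, against 17.4% of all genes tested), 3 rose (6.25%, against 21.2%) and 28 did not pass. Falls of at least 1.5-fold were seen in 8 (16.7%, against 3.32%) and a rise of that size in 1 (2.08%, against 2.7%). Their median difference was -0.07, and that of all genes was 0.01. By family, 7 of 20 tested MMPs, 8 of 19 ADAMTS proteases, 1 of 5 ADAMTS-like genes and 1 of 4 TIMPs fell. Among the 28 that did not pass, 20 had fewer than 80% of their probe sets above the filter, against 4 of the 20 that did. Many of the uncalled genes thus held dim probe sets, and the part of this in the missing calls was not tested. No detection call was available. The untested genes were the collagenases Mmp1a and Mmp8, with 2 probe sets above the filter each, and Mmp1b, with 0. Without the filter their control and Smo shRNA means were 4.57 ± 0.04 and 4.59 ± 0.06 for Mmp1a, 3.75 ± 0.06 and 3.82 ± 0.02 for Mmp1b and 4.82 ± 0.18 and 4.93 ± 0.08 for Mmp8 (SD, n = 3 each).

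**Figure D1:**
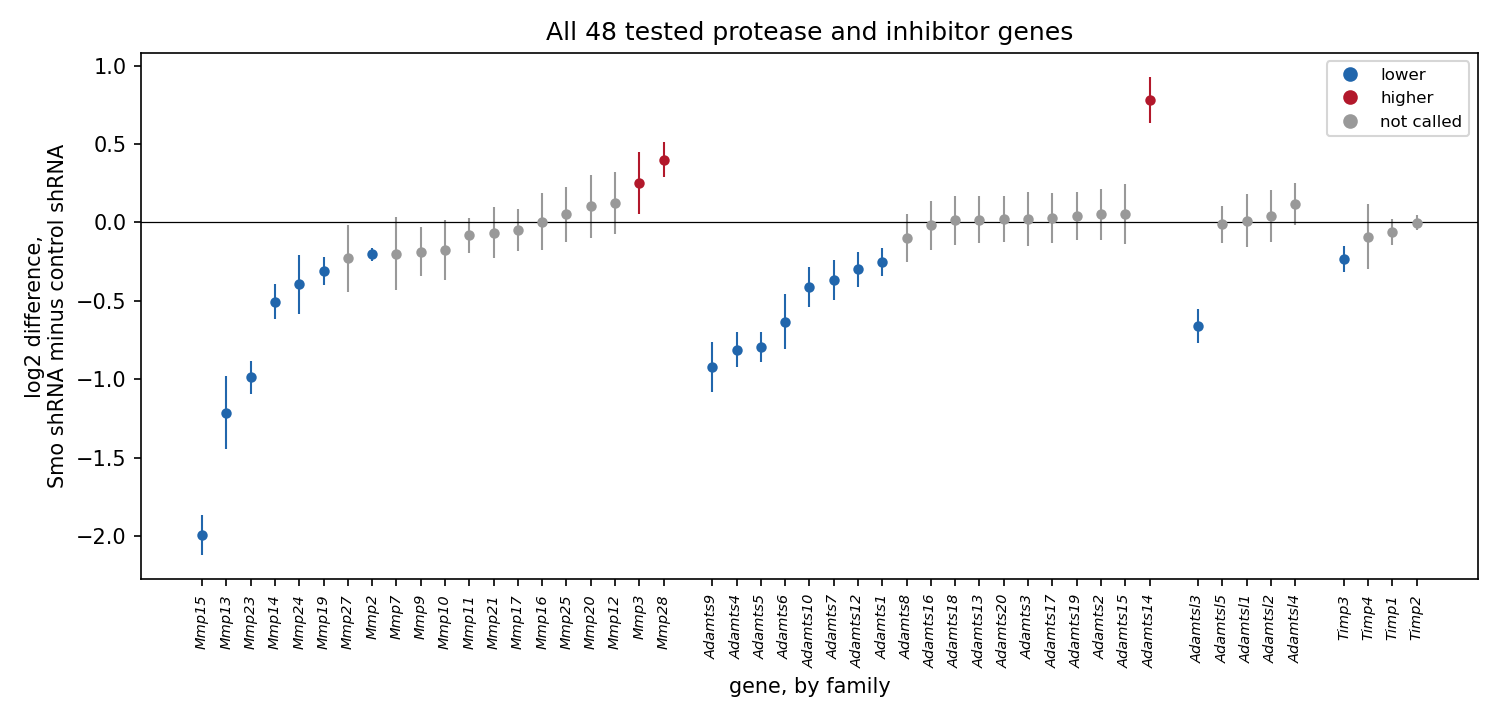
Log2 difference, Smo shRNA minus control shRNA, of the 48 tested genes by family, with points as estimates and bars as 95% intervals from limma (3 samples a group). Blue genes were called lower (17), red genes higher (3) and grey genes were not called (28); Mmp15 is lowest at -1.995 and Adamts14 highest at 0.78.

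Membrane-type MMPs sit on the cell surface, where they cut pericellular matrix and activate other MMPs. Of the 6, 3 fell (17.4% of all genes did) and 3 did not pass. Mmp15, which encodes MT2-MMP, showed the largest change of all 48 genes. It read 10.96, 10.77 and 10.89 in the control shRNA samples and 8.85, 8.87 and 8.92 in the Smo shRNA samples. The lines did not overlap and lay far apart relative to the spread within each, a 3.99-fold decrease (log2 difference -1.995, SE 0.06, limma adjusted p = 3.37e-11). All 14 Mmp15 probe sets were lower and 13 were called on their own (30% of all tested probe sets were called in either direction), with differences from -2.34 to -0.26.

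Mmp14, which encodes MT1-MMP, the main activator of pro-MMP2 at the cell surface and a collagenase in its own right, fell less. Its values were 11.99, 11.81 and 11.85 in control shRNA and 11.29, 11.39 and 11.46 in Smo shRNA samples, again without overlap (log2 difference -0.51, SE 0.05, limma adjusted p = 3.76e-06, 1.42-fold lower). Of its 15 probe sets, 14 were lower and 12 of these were called. Mmp24 (MT5-MMP), best known from the nervous system, had values of 8.27, 8.32 and 8.24 against 7.98, 7.996 and 7.67 (log2 difference -0.40, SE 0.09, limma adjusted p = 0.00254). Smo shRNA sample 3 was the lowest, and the Mmp24 probe sets were mixed, with 4 of 10 called lower and 2 higher without a call. The other membrane-type genes, Mmp16 (0.01, adjusted p = 0.972) and the lipid-anchored Mmp17 (-0.05, adjusted p = 0.638) and Mmp25 (0.05, adjusted p = 0.701), did not pass. Mmp16 was dim, with 6 of 20 probe sets above the filter. Without the filter its means were 5.78 in control shRNA and 5.63 in Smo shRNA samples, without overlap (-0.16, limma adjusted p = 0.131).

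The gelatinases digest denatured collagen and basement membrane collagen. Mmp2, the gelatinase typical of fibroblasts and the substrate that MT1-MMP activates, was measured with little spread. It read 13.70, 13.68 and 13.66 in control shRNA samples and 13.48, 13.48 and 13.46 in Smo shRNA samples. The difference was small next to those above but exceeded the spread within both lines (log2 difference -0.20, SE 0.02, limma adjusted p = 2.19e-06, 1.15-fold lower), and all 17 probe sets were called lower. Mmp9, the gelatinase typical of leukocytes and osteoclasts, did not pass (-0.19, adjusted p = 0.0563), although its values did not overlap between the lines (8.09, 7.97 and 7.96 against 7.87, 7.81 and 7.79). It was called in 3 of 13 alternative fits. Absence of overlap was common here, at 47.8% of all genes tested and 23 of these 48.

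Mmp13, the main interstitial collagenase of mouse bone and cartilage, fell by 1.21 on the log2 scale. The control shRNA samples read 8.91, 8.54 and 8.66 and the Smo shRNA samples 7.69, 7.48 and 7.31. Samples within each line differed more than for the genes above, but the highest Smo shRNA value was still below the lowest control value (2.32-fold lower, SE 0.11, limma adjusted p = 8.66e-07). All 9 of its tested probe sets were lower and 7 were called, but unevenly: 4 fell by 1.29 to 1.52 and the other 5 by 0.51 to 0.77, with a median difference of -0.77. The gene's difference was -0.92 without the filter and ran from -1.37 to -0.88 over the alternative fits, all of them called.

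Mmp13 lies at one end of a cluster of 10 MMP genes on chromosome 9, in the order Mmp13, Mmp12, Mmp1b, Mmp3, Mmp1a, Mmp10, Mmp8, Mmp27, Mmp20 and Mmp7. Of the 7 cluster genes tested, 1 was called lower (14.3%, against 17.4% of all genes) and 1 higher (14.3%, against 21.2%). Mmp13 was the one called lower. Mmp3 (stromelysin 1) was called higher, from 7.53, 7.59 and 7.29 to 7.69, 7.82 and 7.66 (log2 difference 0.25, SE 0.09, limma adjusted p = 0.0421). That call rested on 3 of 14 Mmp3 probe sets, none called on its own. It was lost when any 1 of the 6 samples was left out (differences of 0.12 to 0.31) and without the filter (0.14, adjusted p = 0.441). Mmp27 (-0.23, adjusted p = 0.0862), Mmp10 (-0.18, adjusted p = 0.149), Mmp7 (-0.20, adjusted p = 0.175), Mmp12 (0.12, adjusted p = 0.337) and Mmp20 (0.10, adjusted p = 0.456) did not pass. In this order, 5 of 16, 8 of 15, 3 of 7, 7 of 21 and 3 of 15 probe sets lay above the filter. Without the filter their differences were -0.08, 0.003, 0.13, -0.009 and 0.08. Their unfiltered control means were 5.82, 6.80, 6.43, 5.53 and 5.60, against 7.88 for Mmp13. The part of these low levels in the missing calls was not tested. Mmp10 is a second stromelysin, Mmp7 is matrilysin, Mmp12 is the elastase of macrophages and Mmp20 the enamel protease enamelysin.

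**Figure D2:**
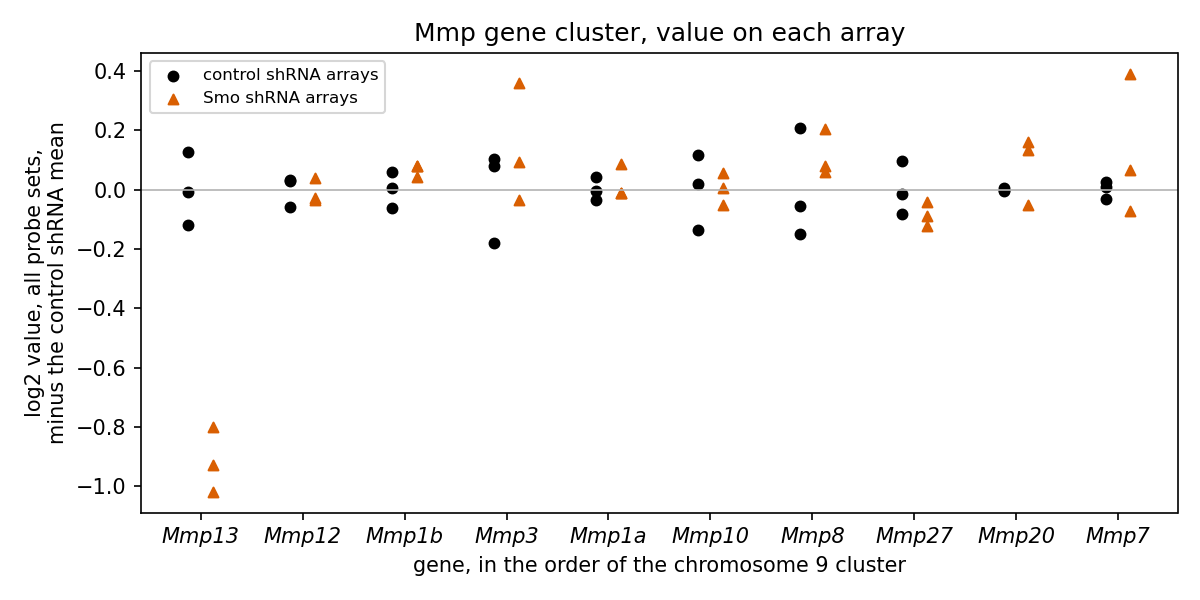
Value on each array of the 10 clustered Mmp genes in chromosomal order, joined from all probe sets without the filter and drawn as the log2 difference from the mean of the 3 control shRNA arrays (circles, control shRNA; triangles, Smo shRNA). The 3 Mmp13 values in Smo shRNA cells lie apart from the control values, while those of the other 9 genes overlap between the lines. Levels are not drawn: the unfiltered control mean was 7.88 for Mmp13 and 3.75 (Mmp1b) to 6.80 (Mmp10) for the others.

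The promoters of this cluster share letters that the choice of genes did not use. RefSeq promoter windows (GRCm38.p6), here the 250 bases before the start, were at hand for 36 of the 51 genes. The called genes Mmp2, Mmp19, Adamts4, Adamts5, Adamts6, Adamts7 and Adamts10 had none and were not searched. An AP-1 motif, TGANTCA on either strand, was found in 8 of the 12 windows of the cluster (66.7%, 8 of its 10 genes) and in 0 of the 27 windows of the other 26 genes, against 6.75% of all 32851 windows. AP-1 is a dimer of Fos and Jun family proteins that is known to act at MMP promoters. The median GC content was 40.2% in the windows of the cluster, 64.4% in those of the other genes and 52.4% overall. A TATAAA motif on the sense strand was present in 7 cluster windows (58.3%) and in 3 of the other 27 (11.1%), against 7.59% of all windows. The windows of Mmp13, which fell, and of Mmp3 and Mmp10, which carry the same motif and were not called lower, are shown first. Mmp3 and Mmp10 were dimmer than Mmp13 (unfiltered control means of 5.39 and 6.80, against 7.88). Whether the motif goes with a fall was not tested. Those of Mmp15 and Adamts14, the genes with the largest fall and rise, follow for contrast and hold no AP-1 match. Each is written 5′ to 3′ on the gene's strand, with AP-1 matches in capitals. The first base of the match lies 35 bases before the start in Mmp13, 46 in Mmp3 and 63 in Mmp10. The windows are chr9:7272264-7272513, chr9:7445572-7445821, chr9:7502092-7502341 and chr8:95352046-95352295 on the plus strand and chr10:61273420-61273669 on the minus strand.
Mmp13: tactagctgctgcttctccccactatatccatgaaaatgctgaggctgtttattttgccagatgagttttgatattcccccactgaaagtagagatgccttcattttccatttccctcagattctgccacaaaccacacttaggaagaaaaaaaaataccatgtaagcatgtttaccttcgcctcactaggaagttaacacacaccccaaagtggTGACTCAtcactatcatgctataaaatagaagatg
Mmp3: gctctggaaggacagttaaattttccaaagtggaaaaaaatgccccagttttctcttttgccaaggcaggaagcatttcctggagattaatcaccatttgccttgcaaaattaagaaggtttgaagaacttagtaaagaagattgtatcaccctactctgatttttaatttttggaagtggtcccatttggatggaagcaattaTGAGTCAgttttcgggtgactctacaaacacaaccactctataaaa
Mmp10: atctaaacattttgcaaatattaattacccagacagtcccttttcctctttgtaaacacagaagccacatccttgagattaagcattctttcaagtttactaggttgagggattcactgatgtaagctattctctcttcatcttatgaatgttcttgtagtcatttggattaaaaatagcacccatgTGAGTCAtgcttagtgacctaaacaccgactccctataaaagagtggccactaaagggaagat
Mmp15: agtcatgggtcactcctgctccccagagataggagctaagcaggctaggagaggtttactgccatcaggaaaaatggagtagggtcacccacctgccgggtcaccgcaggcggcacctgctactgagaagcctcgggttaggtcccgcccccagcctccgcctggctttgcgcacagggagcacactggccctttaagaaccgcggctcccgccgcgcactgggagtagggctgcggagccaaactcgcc
Adamts14: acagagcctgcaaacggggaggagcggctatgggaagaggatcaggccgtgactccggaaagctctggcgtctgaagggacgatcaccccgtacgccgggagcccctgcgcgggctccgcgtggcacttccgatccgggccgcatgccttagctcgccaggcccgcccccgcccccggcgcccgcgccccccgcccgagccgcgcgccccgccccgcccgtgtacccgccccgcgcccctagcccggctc
A RUNX motif, TGTGGT on either strand (14% of all windows), was present in 4 cluster windows (33.3%), that of Mmp13 among them. An ETS motif, AGGAAG on either strand (29.5% of all windows), was present in 7 cluster windows (58.3%), those of Mmp13 and Mmp3 among them. None of these matches overlapped an AP-1 match in the windows shown. A match is a run of letters and does not show that a factor binds there.

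The remaining MMPs changed in both directions. Mmp23, a membrane-anchored MMP without the cysteine switch that keeps its relatives latent, read 11.89, 11.76 and 11.89 in control shRNA and 10.93, 10.82 and 10.83 in Smo shRNA samples. The fall was even across the samples and across the gene (1.98-fold, log2 difference -0.99, SE 0.05, limma adjusted p = 2.83e-09), with all 14 probe sets called lower. Mmp19 fell from 11.44, 11.36 and 11.45 to 11.12, 11.09 and 11.11 (log2 difference -0.31, SE 0.04, limma adjusted p = 3.01e-05). In the opposite direction, Mmp28 (epilysin) rose from 10.10, 9.997 and 10.13 to 10.49, 10.44 and 10.50, without overlap (log2 difference 0.40, SE 0.05, limma adjusted p = 2.98e-05, 1.32-fold higher). Of its 18 probe sets, 17 were higher and 13 of them were called. The stromelysin-like Mmp11, a gene bright in both lines with all 15 probe sets above the filter, did not pass (-0.08, adjusted p = 0.24, 95% interval -0.19 to 0.03), nor did Mmp21 (-0.06, adjusted p = 0.588).

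**Figure D3:**
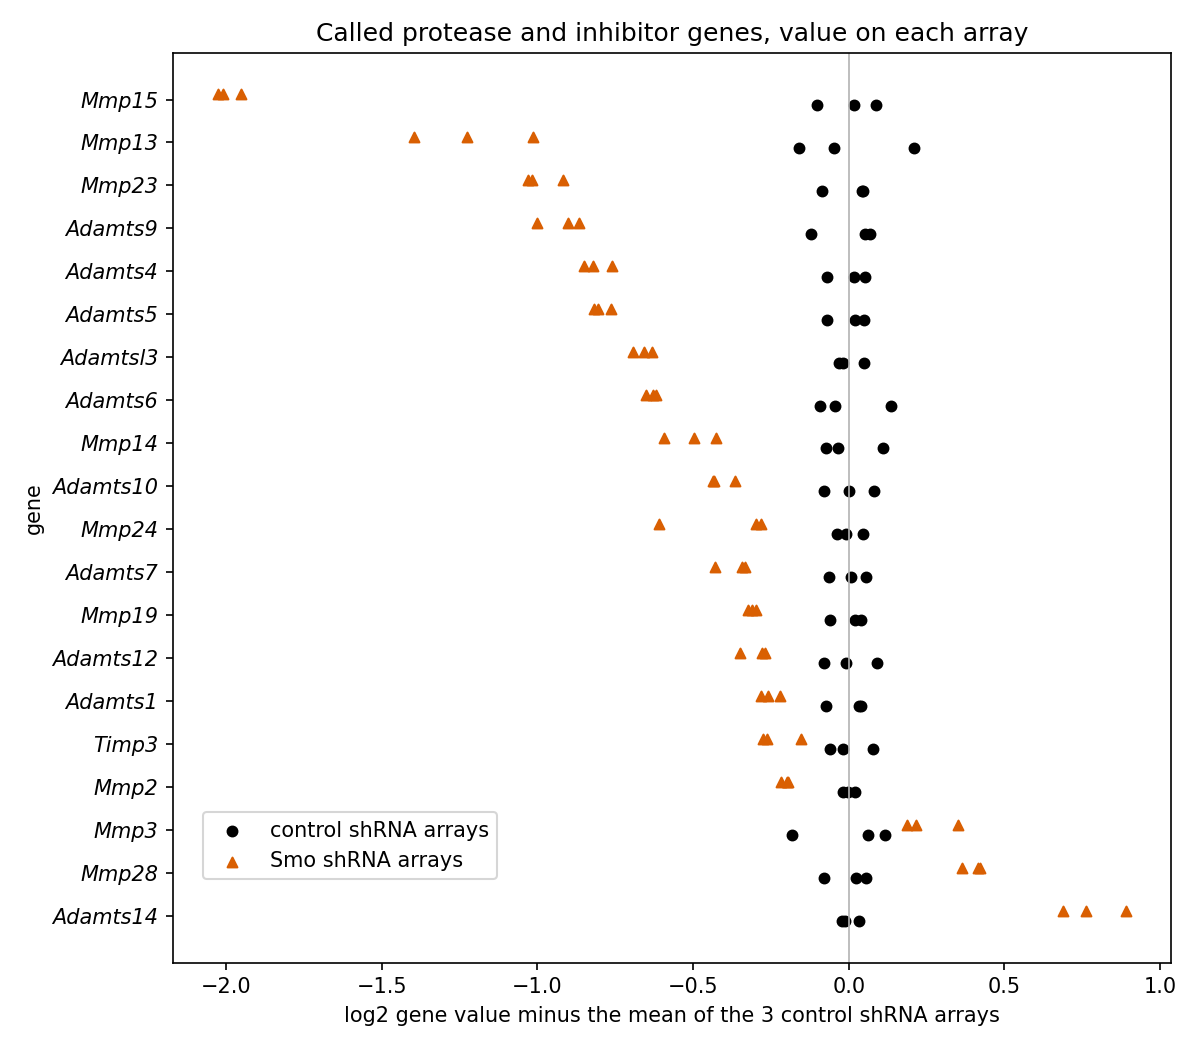
Value on each array of the 20 called genes, drawn as the log2 difference from the mean of the 3 control shRNA arrays (circles, control shRNA; triangles, Smo shRNA). In none of the 20 do the lines overlap, as was the case for 47.8% of all genes tested. Mmp15, Mmp13 and Mmp23 are the farthest to the left and Adamts14 the farthest to the right.

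ADAMTS proteases that cut aggrecan and versican numbered 7, of which 4 fell (57.1%, against 17.4% of all genes) and 0 rose (against 21.2%). Adamts4 and Adamts5 encode the principal aggrecanases. Adamts4 read 10.72, 10.59 and 10.68 in control shRNA and 9.90, 9.81 and 9.84 in Smo shRNA samples (1.75-fold lower, log2 difference -0.81, SE 0.05, limma adjusted p = 4.39e-08). Adamts5 went from 11.35, 11.23 and 11.32 to 10.49, 10.48 and 10.53 (1.73-fold lower, log2 difference -0.79, SE 0.05, limma adjusted p = 1.31e-08). Both aggrecanase genes thus fell by near-equal amounts, with no overlap between the lines. All 18 Adamts4 probe sets were lower and 16 called (-1.06 to -0.20), and all 15 of Adamts5 were lower and 14 called (-0.98 to -0.01).

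Adamts9, a versican-cleaving protease, fell from 8.93, 8.74 and 8.92 to 7.86, 7.996 and 7.96 (1.90-fold lower, log2 difference -0.92, SE 0.07, limma adjusted p = 3.18e-07). Its probe sets were far less even than those of the aggrecanases. Of 46, 40 were called lower, but single differences ran from -2.17 to 0.11. Adamts1, which lies next to Adamts5 on chromosome 16 and cuts aggrecan and versican, fell by a small amount, from 11.64, 11.52 and 11.63 to 11.38, 11.32 and 11.34 (log2 difference -0.25, SE 0.04, limma adjusted p = 0.000219). The other members of the group, Adamts8 (-0.10, adjusted p = 0.319), Adamts15 (0.06, adjusted p = 0.701) and Adamts20 (0.02, adjusted p = 0.86), did not pass. Adamts15 had 4 of 10 and Adamts20 had 27 of 53 probe sets above the filter.

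Among the procollagen N-proteinases, which remove the amino-terminal propeptide of fibrillar procollagens, Adamts14 rose and was the only ADAMTS gene to do so. It read 8.32, 8.27 and 8.26 in control shRNA samples and 9.04, 8.97 and 9.17 in Smo shRNA samples. All Smo shRNA values lay above all control values, a 1.72-fold increase (log2 difference 0.78, SE 0.07, limma adjusted p = 7.73e-07), and all 23 probe sets were higher, 22 of them called. Its relatives Adamts2 (0.05, adjusted p = 0.662) and Adamts3 (0.02, adjusted p = 0.876) did not pass.

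Adamts7 and Adamts12, a related pair that can degrade cartilage oligomeric matrix protein, both fell. Adamts7 changed from 9.46, 9.39 and 9.51 to 9.02, 9.11 and 9.12 (log2 difference -0.37, SE 0.06, limma adjusted p = 0.000211), and Adamts12 from 10.82, 10.75 and 10.92 to 10.48, 10.56 and 10.55 (log2 difference -0.30, SE 0.05, limma adjusted p = 0.000371). The pair Adamts6 and Adamts10, whose products are associated with fibrillin microfibrils, fell as well. Adamts10 went from 9.82, 9.90 and 9.98 to 9.47, 9.46 and 9.53 (log2 difference -0.41, SE 0.06, limma adjusted p = 6.49e-05). Adamts6, a dim gene with 22 of 40 probe sets above the filter, went from 7.66, 7.61 and 7.84 to 7.05, 7.08 and 7.08 (log2 difference -0.63, SE 0.08, limma adjusted p = 2.77e-05). None of these 4 overlapped between the lines, as was the case for 47.8% of all genes tested. Adamts13, the protease of von Willebrand factor, and Adamts16, Adamts17, Adamts18 and Adamts19 did not pass, with differences from -0.02 to 0.04 and adjusted p from 0.741 to 0.926.

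One ADAMTS-like gene changed. Adamtsl3, which encodes a secreted protein without protease activity, read 10.52, 10.51 and 10.59 in control shRNA and 9.85, 9.88 and 9.91 in Smo shRNA samples (1.58-fold lower, log2 difference -0.66, SE 0.05, limma adjusted p = 1.74e-07). Values hardly varied within a line, and of its 45 probe sets all were lower and 42 called. Adamtsl4 (0.12, adjusted p = 0.166) and Adamtsl5 (-0.01, adjusted p = 0.905), both with nearly all probe sets above the filter, did not pass, with 95% intervals of -0.02 to 0.25 and -0.13 to 0.11. Adamtsl1 (0.01, adjusted p = 0.938) and Adamtsl2 (0.04, adjusted p = 0.744) did not pass either.

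The inhibitors moved little. Timp3, which binds to the matrix and is the TIMP that inhibits the aggrecanases, fell from 13.12, 13.21 and 13.08 to 12.86, 12.87 and 12.98, with no overlap (1.17-fold lower, log2 difference -0.23, SE 0.04, limma adjusted p = 0.000233). All 14 probe sets were lower and 13 called. Timp2, which also takes part in the activation of pro-MMP2 by MT1-MMP, read 13.44, 13.40 and 13.42 in control shRNA and 13.41, 13.44 and 13.41 in Smo shRNA samples. The 2 sets of values overlapped (log2 difference -0.00, SE 0.02, limma adjusted p = 0.983). The 95% interval of the difference was -0.05 to 0.05, and it rests only on the spread between samples of 1 line per condition.

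Timp1, a secreted inhibitor of most soluble MMPs, read 13.09, 13.04 and 13.07 against 12.997, 13.10 and 12.92 and did not pass (log2 difference -0.06, SE 0.04, limma adjusted p = 0.243, 95% interval -0.14 to 0.02). Of its 7 probe sets, 6 differed by -0.12 to -0.01. The remaining one was called higher by 1.07 (7.51 ± 0.25 against 8.58 ± 0.70, SD, n = 3, adjusted p = 0.00534) and was the dimmest of the 7. With the mean of probe sets in place of the median polish the Timp1 difference turned positive (0.10) without a call. Timp4 was dim and did not pass (-0.09, adjusted p = 0.532).

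**Figure D4:**
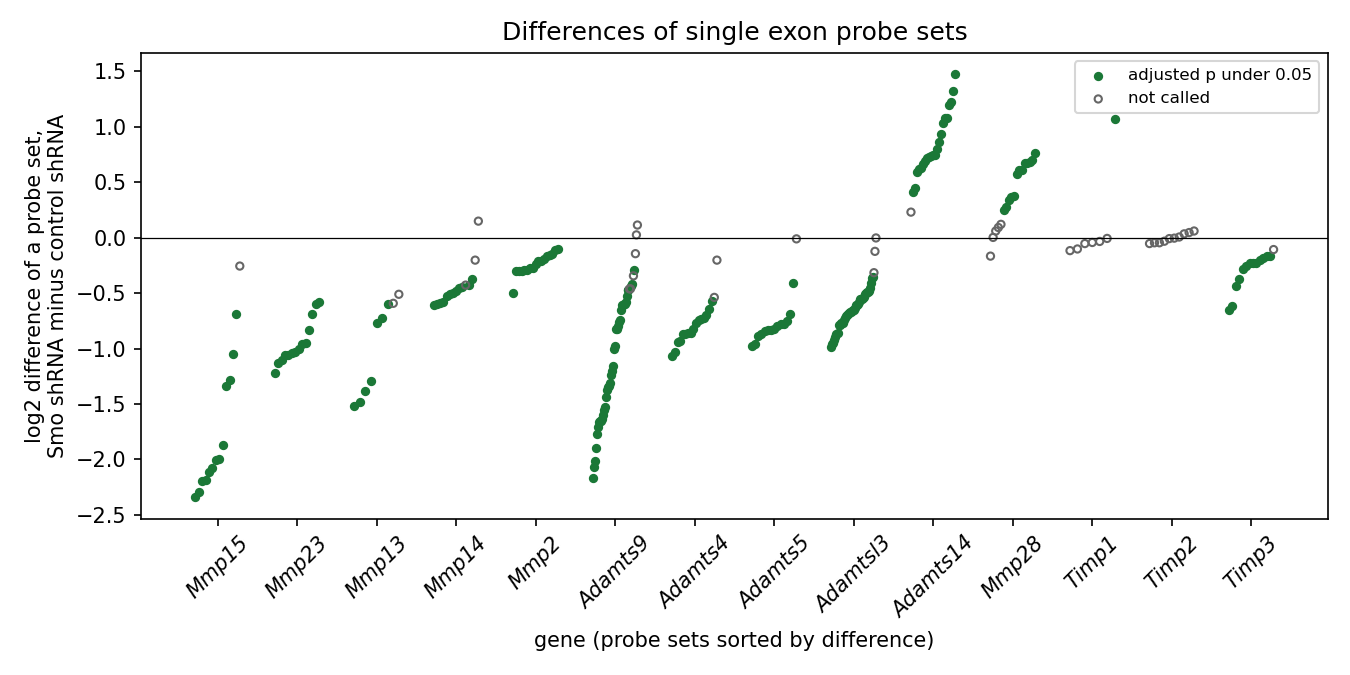
Log2 difference, Smo shRNA minus control shRNA, of each exon probe set above the filter for 14 genes, sorted by size within a gene (filled, adjusted p under 0.05 over all probe sets; open, not called). Probe sets of Mmp2 lie between -0.50 and -0.10 and those of Mmp23 between -1.22 and -0.58, those of Adamts9 spread from -2.17 to 0.11, and 1 probe set of Timp1 stands at 1.07 above the other 6.

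The wider machinery that activates, docks or competes with these enzymes was described through 6 lists. These held 68 tested genes, of which 22 rose (32.4%, against 21.2% of all genes) and 20 fell (29.4%, against 17.4%) while 26 did not pass, with a median difference of 0.00. The plasminogen system is a serine protease cascade that activates several pro-MMPs. Of its 6 tested genes, 4 rose (66.7%, against 21.2% of all genes) and 0 fell (against 17.4%). Plau, which encodes urokinase, read 9.97, 9.74 and 9.94 in control shRNA and 10.995, 10.88 and 10.96 in Smo shRNA samples (2.09-fold higher, log2 difference 1.06, SE 0.06, limma adjusted p = 1.9e-08). Plat, the tissue-type activator (0.34, adjusted p = 4.44e-05), Plaur, the urokinase receptor (0.32, adjusted p = 0.000653), and Lrp1, an endocytic receptor that clears proteases and their complexes (0.21, adjusted p = 9.63e-05), rose as well. The Plaur call was lost without Smo shRNA sample 1 (0.27, adjusted p = 0.0642) and without Smo shRNA sample 3 (0.30, adjusted p = 0.0577). Plg and Serpine2 did not pass.

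Of 4 proprotein convertases, which cut the propeptide of membrane-type MMPs and ADAMTS proteases, 1 rose and 2 fell (21.2% and 17.4% of all genes did). Pcsk6 went from 11.58, 11.46 and 11.56 to 10.99, 11.08 and 11.10 (log2 difference -0.48, SE 0.04, limma adjusted p = 1.41e-06). Pcsk7 also fell (-0.17, adjusted p = 0.0189) and Furin rose (0.11, adjusted p = 0.0433), but the Pcsk7 call was lost in 5 and the Furin call in 10 of 13 alternative fits (differences of -0.21 to -0.10 and 0.04 to 0.12). Leaving out any 1 of the 6 samples ended the Furin call, and leaving out any 1 Smo shRNA sample, or control shRNA sample 1 or 3, ended that of Pcsk7. Of 9 other inhibitors, inducers and docking partners, 4 rose (44.4%) and 1 fell (11.1%). Cav1, a coat protein of caveolae (0.81, adjusted p = 3.56e-08), Itgb3, the integrin chain that pairs with Itgav to dock MMP2 (0.61, adjusted p = 2.88e-06), and Reck, a membrane-anchored inhibitor of MMPs (0.31, adjusted p = 0.000714), rose. The Reck call was lost without Smo shRNA sample 3 (0.24, adjusted p = 0.0577), and the difference was 0.21 without control shRNA sample 2. The changes of Itgav (0.10, adjusted p = 0.0294) and of the MMP inducer Bsg (-0.08, adjusted p = 0.0169) were smaller, and their calls were lost in 8 and 5 of 13 alternative fits (0.02 to 0.11 and -0.16 to -0.05). Leaving out any 1 sample ended the Itgav call, and leaving out control shRNA sample 2 or 3 or Smo shRNA sample 1 or 3 that of Bsg. Of 12 ADAM and astacin proteases, 4 rose (33.3%) and 3 fell (25%). Adam8 rose from 8.16, 7.97 and 8.09 to 9.52, 9.35 and 9.53 (2.63-fold higher, log2 difference 1.40, SE 0.07, limma adjusted p = 6.81e-09) and Adam19 by 0.48 (adjusted p = 7.22e-06), with smaller rises of Adam9 (0.16, adjusted p = 0.000161) and of Adam17 (0.20, adjusted p = 0.0224, a call lost in 7 of 13 alternative fits, among them those without control shRNA sample 1, 2 or 3 or Smo shRNA sample 1 or 2). Adam12 fell from 8.94, 8.80 and 9.03 to 8.38, 8.25 and 8.40 (log2 difference -0.58, SE 0.07, limma adjusted p = 2.67e-05), and Adam15 (-0.32, adjusted p = 3.06e-05) and Adam23 (-0.29, adjusted p = 1.6e-05) fell less. The values of Plau, Pcsk6, Adam8 and Adam12 did not overlap between the lines, as was the case for 47.8% of all genes tested.

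Of 22 matrix substrates and partners, 7 fell (31.8%, against 17.4% of all genes) and 5 rose (22.7%, near the 21.2% of all genes). The fibrillar collagen genes Col1a2 (-0.46, adjusted p = 2.99e-07), Col2a1 (-0.41, adjusted p = 2.16e-05), Col3a1 (-0.25, adjusted p = 0.00109) and Col1a1 (-0.15, adjusted p = 0.000994, and -0.10 without Smo shRNA sample 1) fell, whereas the laminin chains Lamb1 (0.74, adjusted p = 5.13e-07) and Lamc1 (0.49, adjusted p = 1.37e-05) and the matricellular gene Tnc (0.48, adjusted p = 8.7e-08) rose. The basement membrane collagen genes Col4a1 (0.28, limma adjusted p = 0.000738) and Col4a2 (0.19, limma adjusted p = 0.0171) rose as well. Of the large proteoglycans, Vcan (versican) fell (-0.17, adjusted p = 0.000578) and Acan (aggrecan) did not pass (-0.00, adjusted p = 0.975). Among the 12 calls of this list, those of Pcolce, Col4a2 and Pcolce2 were lost in 7, 3 and 4 alternative fits.

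Of 15 transcription factors known at MMP and ADAMTS promoters, 7 fell (46.7%, against 17.4% of all genes) and 4 rose (26.7%, against 21.2%). Within the AP-1 family, Fosb fell from 9.45, 9.78 and 9.79 to 8.40, 8.61 and 8.55 (log2 difference -1.15, SE 0.09, limma adjusted p = 2.4e-07) and Fos from 9.83, 9.65 and 10.10 to 8.90, 8.49 and 8.76 (log2 difference -1.14, SE 0.11, limma adjusted p = 2.4e-06). Junb (-0.69, adjusted p = 4.29e-07) and Fosl2 (-0.40, adjusted p = 2.66e-06) also fell, Fosl1 rose (0.61, adjusted p = 4.39e-07), and Jun (-0.03, adjusted p = 0.82) and Jund (-0.11, adjusted p = 0.182) did not pass. Runx1 (-0.83, adjusted p = 9.1e-08) and Runx2, a regulator of Mmp13 in bone (-0.42, adjusted p = 2.81e-06), fell. Of the ETS factors, Etv4 (0.91, limma adjusted p = 7.79e-08), Etv5 (0.42, limma adjusted p = 5.68e-05) and Ets1 (0.35, limma adjusted p = 2.36e-05) rose. Ets2 did not pass (0.02, limma adjusted p = 0.855). Nfkb1 fell (-0.29, limma adjusted p = 0.000359) and Rela did not pass (0.08, limma adjusted p = 0.083). The part of these factors in the changes of the proteases was not tested.

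**Figure D5:**
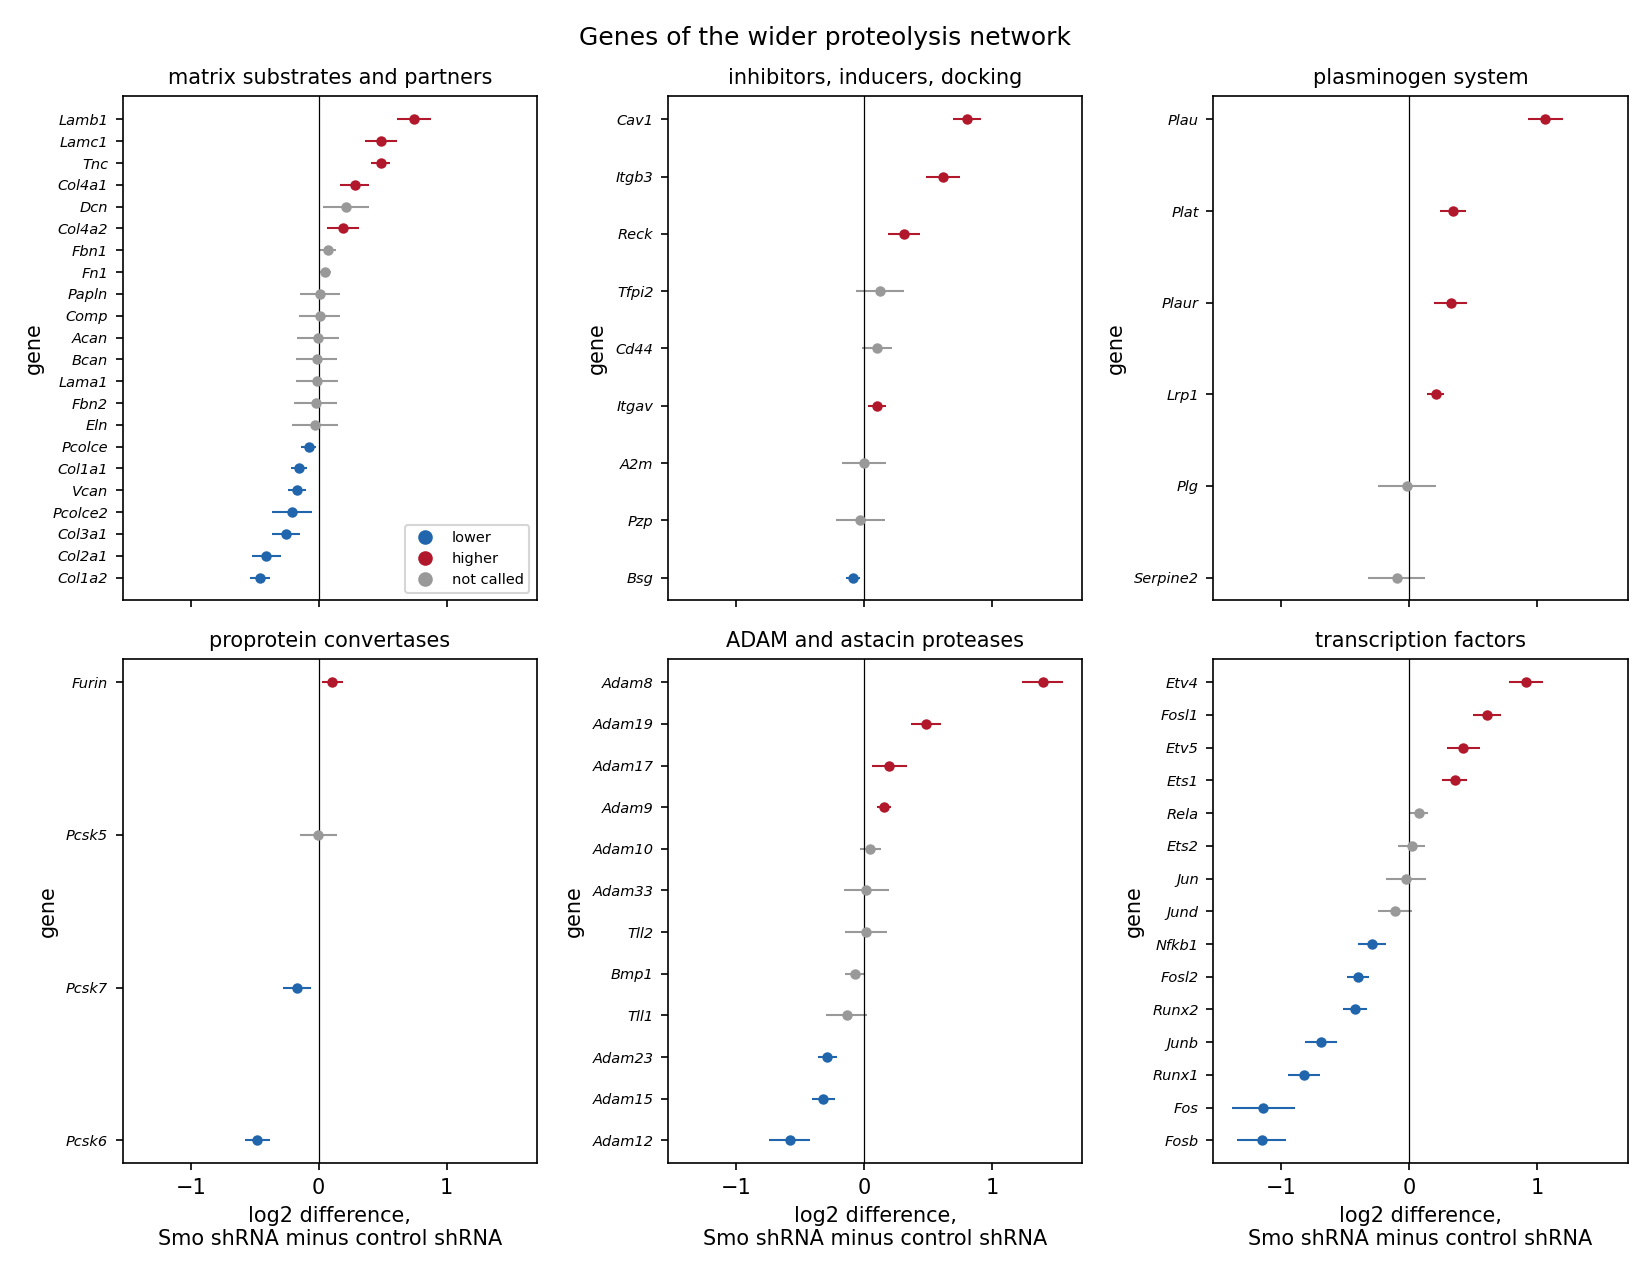
Log2 difference, Smo shRNA minus control shRNA, of 68 tested genes in 6 lists around the proteases, with points as estimates and bars as 95% intervals from limma (3 samples a group; blue, called lower; red, called higher; grey, not called). Plau, Adam8 and Etv4 stand out to the right, and Fos and Fosb to the left.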

How the data were processed

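The authors deposited 1 table of log2 values for 1256831 exon probe sets on 6 arrays, summarised and normalized by steps not given in the sources used here, and the log2 scale was inferred from their range (0 to 15.14) and from array medians of 6.56 to 6.59. Probe sets were named from the platform annotation: 318760 had 1 symbol, 6684 several (left out) and 931387 none. Older symbols were updated through the RefSeq table of GRCm38.p6. Probe sets with a mean at or above the median of all (6.56) were kept, and genes with at least 3 were joined by Tukey median polish. The 3 Smo shRNA arrays were set against the 3 control arrays in R 4.3.3 with limma 3.58.1 (lmFit, eBayes with a variance trend, two-sided, no replicate block, Benjamini-Hochberg over 16923 genes, or over 245574 probe sets in the probe set fit). The calculation was tested on simulated data. All 51 genes are accounted for, each called one with its values on every array. From each wider list the rule names at most 6 called genes and 2 uncalled genes by smallest adjusted p, and genes named beyond that were chosen after their values were seen. Genes, lists and roles were chosen with earlier results of these data known, so no test over a list was made. A total of 13 alternatives were tried: the filter, the joining of probe sets, the minimum of 5 probe sets, quantile normalization, the variance trend, the replicate block and leaving out each array. The number of arrays limits the precision.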

Additional observations from a re-analysis of the deposited data

How the results depend on the processing

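Of the 20 called genes, 19 kept their direction and call in every alternative that tested them; Mmp3 did not, and was called in 3 of 11. The number of members called lower was 16 to 19 over the 13 alternatives and the number called higher 2 to 3. Leaving out 1 array gave 17 lower and 2 higher in each of the 6 fits, as against 2089 to 2786 lower and 2672 to 2918 higher over all genes. Adamts6 and Mmp3 had too few probe sets with the stricter filter, and Mmp3 was not tested in 1 further setting. Of the 28 uncalled genes, 2 were called in some alternatives, Mmp9 in 3 and Mmp27 in 2, both lower. Called values of the 51 genes reversed in 0 cases. Samples with the same replicate number deviated together unevenly (correlations of 0.08, 0.10 and 0.39 across genes). Samples with different numbers were not set beside these, so the values cannot decide whether the numbers pair the samples. The main fit did not pair them. With the replicate block, 19 members were lower and 3 higher, and the Smo difference was -0.88. Smo ran from -0.91 to -0.84 without 1 array. No detection call was at hand for dim genes.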
